A study of Rattus norvegicus with 24 samples.

Results

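Metallothioneins and metal ion transporters were followed in brain microvessels, prepared from cortex, of rats with acute liver failure. The members are 4 genes, Mt1, Mt2A, Slc39a8 and Slc40a1, of 14218 genes with a probe of their own on the array, and they were taken by symbol from the platform annotation, which gives them 6 probes. They were selected on their signals in HAL, HEP and Sham on these same arrays, known from earlier results. Their differences from Sham are therefore given as a description. Where a member had an adjusted p under 0.05 against Sham this is reported as a call, which is no test.

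HAL rats had a portocaval anastomosis, a shunt that leads portal blood past the liver, and 24 h later a ligation of the hepatic artery. HEP rats had the same shunt and 24 h later a removal of the whole liver. Sham rats went through fictitious operations. Tissue was taken 8 to 12 h after the last step, and each of the 3 groups has 8 arrays. Strain, sex and age are not given in the sources used here. Nothing in the labels states that every array came from its own rat, so errors are those between arrays.

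Metallothioneins are small cysteine-rich proteins that bind zinc and copper in the cytosol. Their genes are switched on by the metal-responsive transcription factor MTF1, which binds metal response elements, and by glucocorticoids. SLC39A8 (ZIP8) carries zinc, manganese and iron into cells. SLC40A1 (ferroportin) is the known exporter of iron from mammalian cells, and hepcidin, a hormone made mostly by the liver, removes it from the cell surface. In brain endothelium these carriers take part in moving zinc, manganese and iron between blood and brain.

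The deposited table, as used here, holds only the decimals of the log2 signals and lacks their integer parts. A cell of 9 digits comes from a signal below 10. A cell of 8 digits comes from one of 10 or above, or from one below 10 that lost a leading or trailing zero. A level was read only for probes near 10, those with 1 to 14 cells of 9 digits among the 24 arrays, which were 2527 of 31099 probes. A reading is 9 or 10 plus the decimals, and shorter cells, 13.5% of those near 10, were not read. A signal beyond 9 or 11 is thus misread by a whole unit or more, and one below 10 that lost a zero is read too high. Arrays were counted as below 10 by their cells of 9 digits, so a signal below 10 in a shorter cell is not counted. Replicate arrays agreed weakly on these readings, with a median correlation of 0.17 across probes between arrays of one group.

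Of the 15 endothelial markers with a probe, 12 reached 10 or above on all arrays with some probe. The same held for 4 of 10 pericyte, 3 of 6 smooth muscle, 4 of 6 perivascular fibroblast and 4 of 10 astrocyte markers. So it did for 2 of 7 oligodendrocyte and 1 of 4 red cell markers. It held for 0 of 10 neuron, 0 of 8 microglia and macrophage and 0 of 7 hepatocyte markers. Neutrophil and monocyte markers had 0 of 6 and choroid plexus markers 0 of 5. In such bulk tissue fewer cells of a type and less RNA per cell cannot be told apart.

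Mt2A, a metallothionein present in most tissues, was higher in both models than in Sham. Its readings lay between 10.35 and 10.99 in HAL, with a median of 10.65 over 7 arrays read. In HEP they ran from 9.95 to 10.94 with a median of 10.70 over 8 arrays, and in Sham from 9.33 to 10.54 with a median of 9.92 over 7. HAL array 7 and Sham array 1 had cells too short to be read. The signal was below 10 on 0 of 8 HAL arrays, 1 of 8 HEP arrays and 5 of 8 Sham arrays. Sham array 4 lay within the HAL range, and Sham arrays 4, 6 and 8 lay above HEP array 8, the lowest HEP array, so the ranges overlapped.

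Mt2A averaged 10.67 ± 0.24 in HAL (SD, n = 7), 10.59 ± 0.35 in HEP (SD, n = 8) and 9.86 ± 0.45 in Sham (SD, n = 7). The differences were 0.82 (SE 0.19) for HAL minus Sham and 0.74 (SE 0.18) for HEP minus Sham on the log2 scale. Among 1738 genes read near 10, Mt2A ranked 8th from the top in HAL minus Sham and 21st in HEP minus Sham. The limma fit over these genes called it higher (adjusted p under 0.05) in both comparisons. Since the members were selected on these signals, this call and those of the other members against Sham restate the selection and are no test. Of all genes tested 3.8% were called in HAL, 1.21% as higher, and 2.82% in HEP, 1.61% as higher. The call in HEP ended without any 1 of HEP arrays 1, 3, 4, 6 or 7 or Sham arrays 2, 5 or 7, with differences of 0.65 to 0.73, and the call in HAL held without any 1 array.

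Mt1, the metallothionein beside Mt2A on the chromosome, was not called in either model. Its readings ran from 9.41 to 10.74 in HAL with a median of 10.06, from 9.28 to 10.86 in HEP with a median of 9.73, and from 9.15 to 10.33 in Sham with a median of 9.85. All 24 arrays were read, and the 3 ranges overlapped. The signal was below 10 on 4 of 8 HAL arrays, 5 of 8 HEP arrays and 5 of 8 Sham arrays. Means were 10.06 ± 0.50 in HAL, 9.93 ± 0.64 in HEP and 9.89 ± 0.38 in Sham (SD, n = 8 each).

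The difference of Mt1 was 0.16 for HAL minus Sham, with a 95% interval of -0.34 to 0.67, and 0.04 for HEP minus Sham, with an interval of -0.47 to 0.54. The intervals of Mt2A, 0.43 to 1.21 in HAL and 0.36 to 1.11 in HEP, overlap these, and a difference between the 2 genes was not tested. With 14 cells of 9 digits Mt1 lies at the edge of the range that was read. Its 10 cells of 8 digits would fall between 9.01 and 9.09 if each had lost a leading zero. With a trailing zero lost they would fall between 9.137 and 9.865, beside 9.155 to 9.902 for its cells of 9 digits. The digits do not tell these readings apart.

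The metallothionein genes Mt1, Mt2A, Mt3 and Mt4 follow each other on chromosome 19 in the RefSeq annotation of GRCr8. The 250 bases before the starts of Mt1 and Mt2A are shown because metallothionein promoters are known for their metal response elements. They are chr19:10832976-10833225 for Mt1 and chr19:10838709-10838958 for Mt2A, both on the minus strand of GRCr8, from RefSeq. Capitals mark matches to the core of the metal response element, TGCACNC or TGCGCNC, on either strand.
Mt1: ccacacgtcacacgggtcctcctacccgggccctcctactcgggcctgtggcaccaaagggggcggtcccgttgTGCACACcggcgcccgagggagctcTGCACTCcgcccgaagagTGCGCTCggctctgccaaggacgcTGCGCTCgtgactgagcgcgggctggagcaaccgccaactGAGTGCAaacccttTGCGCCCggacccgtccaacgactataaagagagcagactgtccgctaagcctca
Mt2A: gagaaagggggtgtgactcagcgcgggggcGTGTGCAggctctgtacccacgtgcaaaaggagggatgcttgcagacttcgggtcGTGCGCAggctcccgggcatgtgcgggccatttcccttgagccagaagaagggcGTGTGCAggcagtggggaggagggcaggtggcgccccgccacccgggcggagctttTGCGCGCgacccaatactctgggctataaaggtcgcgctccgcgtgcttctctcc
Mt1 held 6 matches, 5 of them on its own strand, and Mt2A held 4, of which 1 on its own strand. Of 33469 windows of the same length and position in the annotation, 20.6% held at least 1 match, 0.266% at least 4 and 0.027% at least 6. In Mt1 and in Mt2A 1 match spans bases 55 to 49 before the start. The windows of Slc39a8 and Slc40a1 held 0 matches. The core of the antioxidant response element, TGACNNNGC, matched once in the windows of Mt1, Mt2A and Slc39a8 and 0 times in that of Slc40a1, against 10.1% of all windows with at least 1. These letters are a description of the windows and not of binding.

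**Figure D1:**
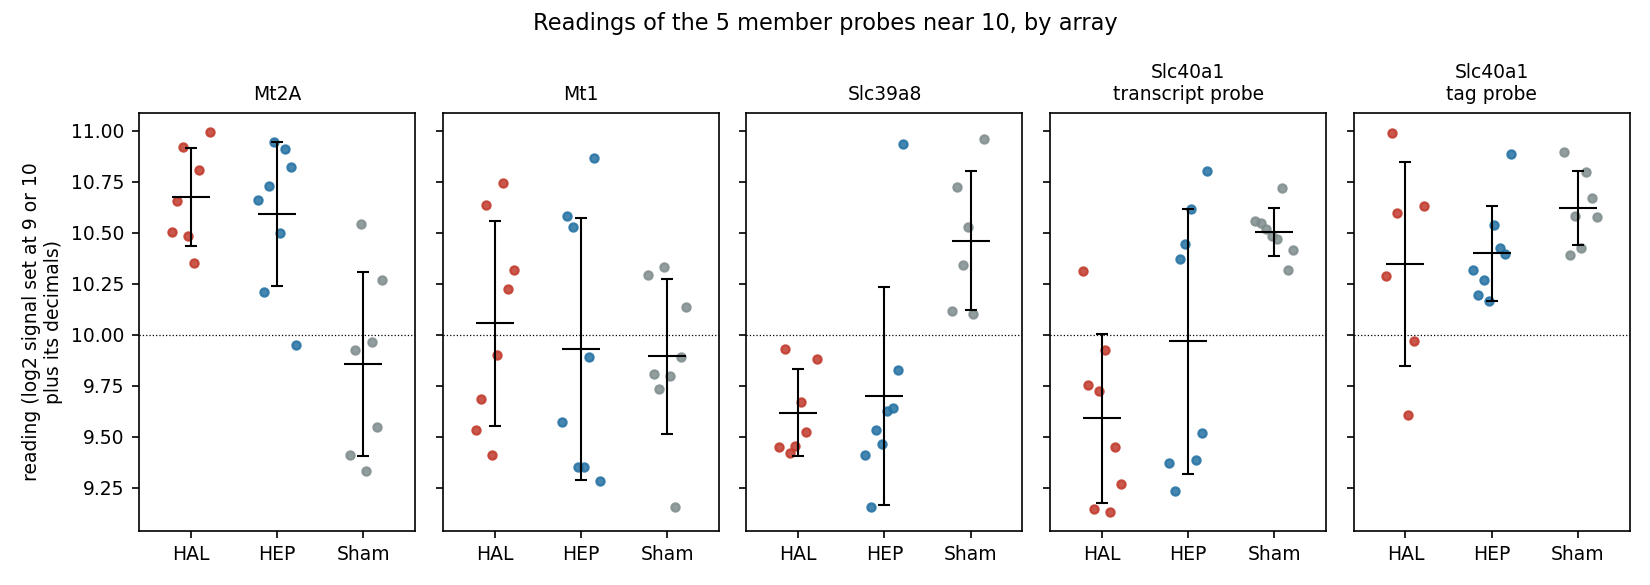
Readings (log2, 9 or 10 plus the decimals) of the 5 member probes near 10 in HAL, HEP and Sham. Points are arrays, bars are the mean ± SD of the arrays read, and the dotted line marks 10. Mt2A lies above its Sham mean of 9.86 in HAL and HEP, Slc39a8 and the Slc40a1 transcript probe lie below their Sham means of 10.46 and 10.50 on most HAL arrays, and the 3 groups of Mt1 overlap.

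Slc39a8, the importer of zinc and manganese, was lower in both models than in Sham. Its readings ran from 9.42 to 9.93 in HAL with a median of 9.52 over 7 arrays read. They ran from 9.16 to 10.93 in HEP with a median of 9.58 over 8 arrays, and from 10.10 to 10.96 in Sham with a median of 10.43 over 6. A cell of 9 digits, a signal below 10, was found on 7 of 8 HAL arrays, 7 of 8 HEP arrays and 0 of 8 Sham arrays. HAL array 7 and Sham arrays 6 and 8 had cells too short to be read. All HAL arrays read were thus below all Sham arrays read, as in 2.3% of genes, and so were the HEP arrays except array 8. Among 2527 probes near 10, a gap of at least 7 arrays in this direction was found in 30 for HAL and in 12 for HEP, this one included. Since the gene was selected on these signals and read only with no cell of 9 digits in Sham, nothing is read from these counts. The Sham cells that were read have 8 digits. Had each lost a leading zero they would read 9.01 to 9.10, below the HAL readings. With a trailing zero lost they would read 9.10 to 9.96, a range that spans the HAL readings.

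Means of Slc39a8 were 9.62 ± 0.21 in HAL (SD, n = 7), 9.70 ± 0.54 in HEP (SD, n = 8) and 10.46 ± 0.34 in Sham (SD, n = 6). The differences were -0.84 (SE 0.22) for HAL minus Sham and -0.76 (SE 0.21) for HEP minus Sham, ranks 14 and 17 from the bottom of 1738 genes. The limma fit over genes called 1 of the 4 members, Slc39a8, lower in each comparison, beside 2.59% of all genes in HAL and 1.21% in HEP, and nothing is read from this. Its 14 cells of 9 digits are the most that the range near 10 admits and all lie in HAL and HEP. It was thus read only because no Sham cell had 9 digits. The fit over 2526 probes near 10 did not call the HEP difference. The HAL call ended without any 1 of HAL arrays 3 or 4 or Sham arrays 2, 4 or 7 (differences of -0.83 to -0.74), and without HAL arrays 2 and 5 and Sham array 3 together (-0.94). The HEP call ended without any 1 of HEP arrays 1 to 7 or of the Sham arrays except array 5 (differences of -0.83 to -0.66), and without HEP array 8 the difference was -0.94 and was called.

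Slc40a1, the iron exporter, has 3 probes, of which 2 were near 10. The one annotated with the RefSeq transcript of the gene is called the transcript probe here. In HAL its readings ran from 9.13 to 10.31 with a median of 9.59, in HEP from 9.23 to 10.80 with a median of 9.94, and in Sham from 10.31 to 10.72 with a median of 10.50. All 24 arrays were read. The signal was below 10 on 7 of 8 HAL arrays, 4 of 8 HEP arrays and 0 of 8 Sham arrays.

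The Sham arrays lay closer together on this probe than on most, since 4.23% of probes near 10 had a lower SD in Sham. HAL array 1 was the HAL array at 10 or above, and its reading of 10.312 was just under the lowest Sham reading of 10.315. The HAL and Sham ranges therefore did not overlap, by a margin far smaller than the SD of either group, as in 2.18% of probes in this direction. The HEP arrays fell apart into 4 readings of 9.23 to 9.52 and 4 of 10.37 to 10.80, so their mean describes few of them. The split lies at 10, where the number of digits changes. An upper cell that had lost a zero would be read too high, and the digits do not tell this apart. The upper 4 overlap the Sham range.

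Means of the transcript probe were 9.59 ± 0.42 in HAL, 9.97 ± 0.65 in HEP and 10.50 ± 0.12 in Sham (SD, n = 8 each). In a limma fit over 2526 probes near 10 the differences were -0.91 (SE 0.22) for HAL minus Sham and -0.54 (SE 0.22) for HEP minus Sham. The HAL difference ranked 12th from the bottom and was called, beside 2.65% of all probes called lower, and the HEP difference was not called. These calls too restate the selection.

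Another, called the tag probe because it is annotated with an expressed sequence tag, had differences closer to 0. Its readings ran from 9.61 to 10.99 in HAL with a median of 10.44 over 6 arrays, from 10.17 to 10.88 in HEP with a median of 10.36 over 8, and from 10.39 to 10.90 in Sham with a median of 10.58 over 7. The signal was below 10 on 2 of 8 HAL arrays, 0 of 8 HEP arrays and 0 of 8 Sham arrays. The differences were -0.27 (SE 0.18) for HAL minus Sham and -0.22 (SE 0.17) for HEP minus Sham, and neither was called. This probe stands for the gene in the fit over 1738 genes because its mean reading is the higher one, so Slc40a1 is not among the genes called there. With the mean of both probes the HAL difference was -0.68 and was called.

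The third probe of Slc40a1 was below 10 on 8 of 8 HAL arrays, 7 of 8 HEP arrays and 6 of 8 Sham arrays, and its level was not read. Counted over the 5 member probes near 10, the fit over probes called 3 in HAL, against 3.72% of all probes, and 1 in HEP, against 2.18%. In HAL these were Mt2A upward and Slc39a8 and the transcript probe of Slc40a1 downward, and in HEP Mt2A upward. Since results of these comparisons were known when the genes were picked, nothing is read from these shares.

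**Figure D2:**
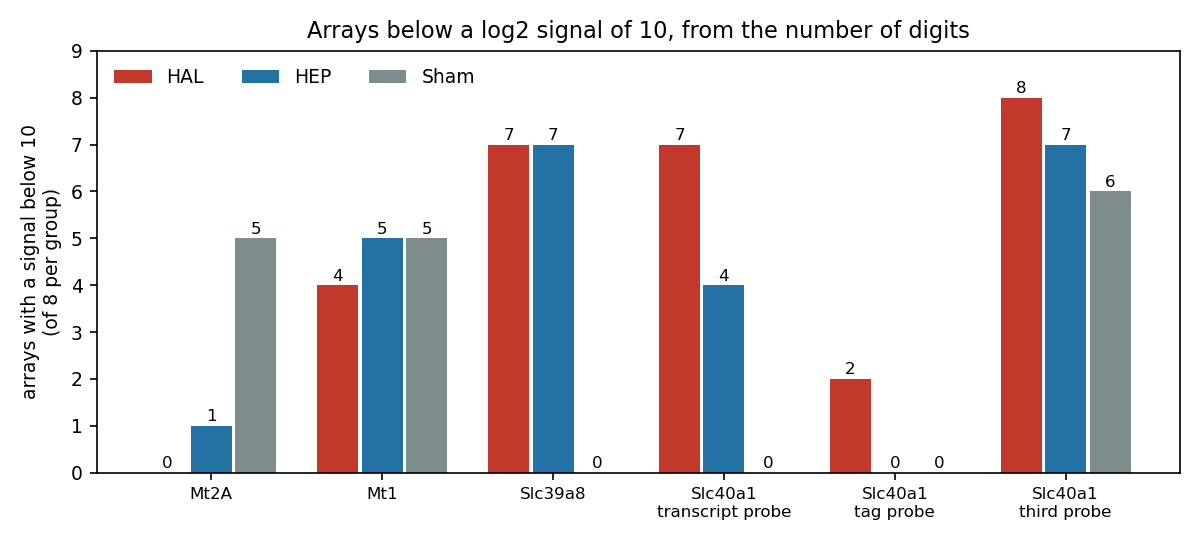
Number of arrays (of 8 per group) on which each of the 6 member probes had a cell of 9 digits, a signal below 10, in HAL, HEP and Sham. Slc39a8 had 7, 7 and 0 such arrays and the Slc40a1 transcript probe 7, 4 and 0, while Mt2A had 0, 1 and 5.

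The models were also compared with each other, a contrast for which 0 of 1738 genes passed in limma (0%, 161 at an unadjusted p under 0.05) and 0 of 2526 probes (0%, 216 at an unadjusted p under 0.05). Mt2A differed by 0.08 between HAL and HEP, with a 95% interval of -0.30 to 0.46 (adjusted p = 0.945 in limma). Mt1 differed by 0.13, with an interval of -0.38 to 0.63 (adjusted p = 0.936 in limma), and Slc39a8 by -0.08, with an interval of -0.50 to 0.34 (adjusted p = 0.949 in limma). The intervals include differences in either direction, so equal levels in the 2 models were not shown.

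For Slc40a1 the transcript probe differed by -0.38 between HAL and HEP, with an interval of -0.83 to 0.07 (adjusted p = 0.662 in limma over probes), and 7 HAL arrays against 4 HEP arrays were below 10. The tag probe differed by -0.05, with an interval of -0.41 to 0.31 (adjusted p = 0.959 in limma). The difference of Slc40a1 from Sham, called in HAL and not in HEP, is therefore not shown to differ between the models. HAL minus Sham and HEP minus Sham share their Sham arrays, so their like signs are not independent.

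**Figure D3:**
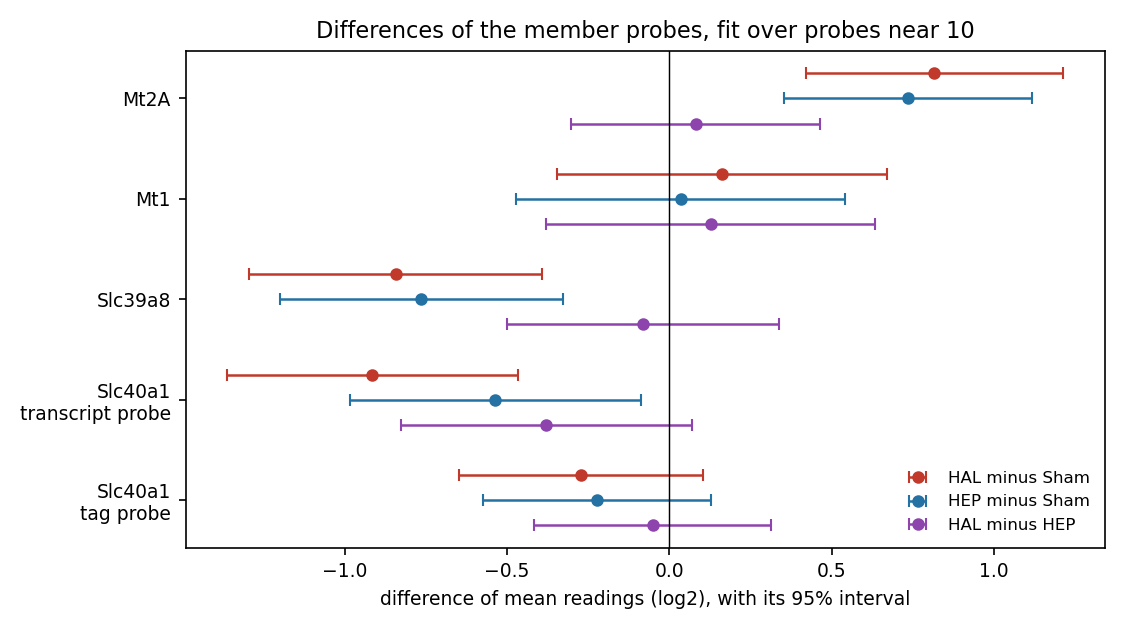
Differences of mean readings (log2) with 95% intervals for HAL minus Sham, HEP minus Sham and HAL minus HEP in the 5 member probes near 10, from the limma fit over probes. The intervals of Mt2A and Slc39a8 exclude 0 in both comparisons with Sham, which restates their selection and is no test. All 3 intervals of Mt1 include 0, and all HAL minus HEP intervals include 0.

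The member probes were next compared array by array, as deviations from the group means. The 10 pairs were chosen after the data were seen, and the permutations of arrays within groups are two-sided. The deviations of Mt1 and of the Slc40a1 transcript probe ran opposite to each other over 24 arrays, with r = -0.62 (permutation p = 0.0105, adjusted 0.0525) and rho = -0.63 (permutation p = 0.00649, adjusted 0.0324). Within the groups r was -0.86 in HAL, -0.55 in HEP and -0.55 in Sham (n = 8 each), and without the 2 arrays farthest in Mt1 it was -0.56. The Pearson value did not pass after adjustment. Since the HEP arrays were read as 2 sets on the Slc40a1 probe, the pooled and HEP values depend on how these cells were read. The values of each group also depend on the Mt1 cells of 8 digits. Had HAL arrays 3, 6, 7 and 8 lost a leading zero in Mt1, they would read 9.02 to 9.07. They would then be the lowest HAL arrays on both probes. The direction in HAL thus depends on the reading, and r was not computed for the other one.

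Slc39a8 and the Slc40a1 tag probe ran in the same direction over 19 arrays read in both, with r = 0.56 (permutation p = 0.00298, adjusted 0.0298) and rho = 0.63 (permutation p = 0.0048, adjusted 0.0324). Within the groups r was 0.43 in HAL (n = 6) and 0.92 in HEP (n = 8). No value is given for Sham, where 5 arrays were read in both. Without the 2 arrays farthest in Slc39a8 the pooled r was 0.49. HEP array 8 is the highest HEP array on both. Its Slc39a8 cell has 8 digits. Had it lost a trailing zero it would read 9.93 and still be the highest HEP array. With a leading zero lost it would read 9.09 and be the lowest. The HEP and pooled values therefore depend on how this cell was read, and r was not computed for the other readings. The other 8 pairs had adjusted permutation p-values of 0.37 or more. Among them Mt1 and Mt2A had r = 0.35 (permutation p = 0.111, adjusted 0.37) and the 2 probes of Slc40a1 r = 0.13 (permutation p = 0.625, adjusted 0.694), so the probes of this gene were not shown to vary together.

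**Figure D4:**
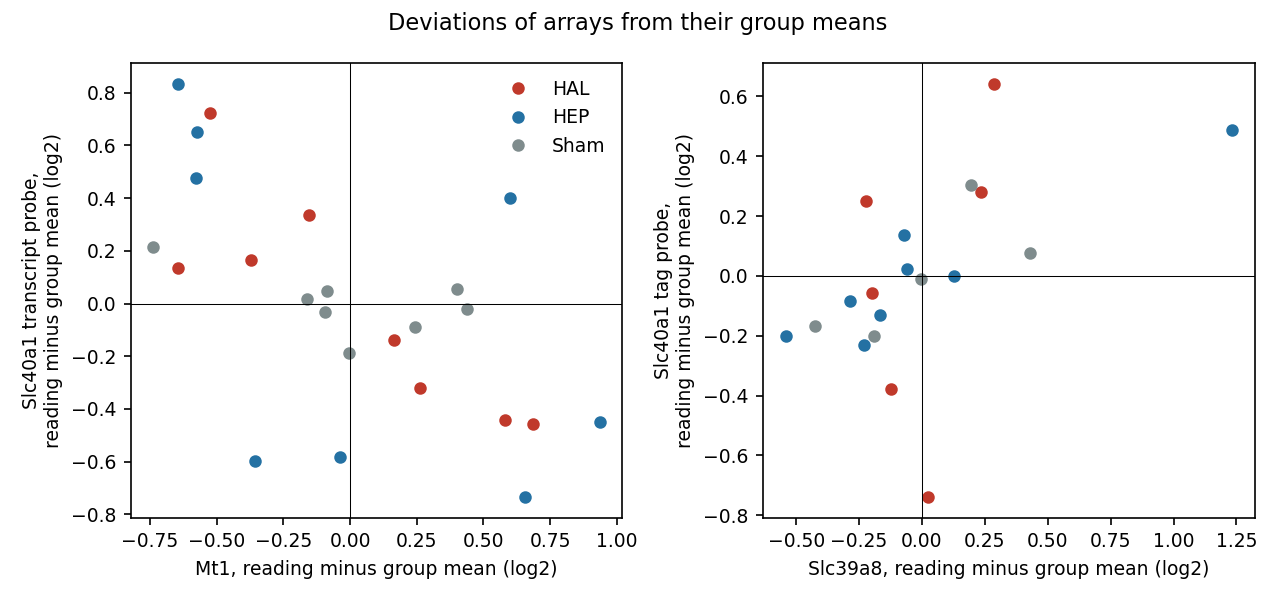
Deviations of arrays from their group means (log2) for Mt1 against the Slc40a1 transcript probe, and for Slc39a8 against the Slc40a1 tag probe. Points are arrays of HAL, HEP and Sham, and the correlations are -0.62 over 24 arrays and 0.56 over 19 arrays.

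The genes whose readings were most like those of each member over all 3 groups were taken by Pearson correlation over the arrays read in both. For Mt2A these were Ell, an elongation factor of RNA polymerase II, Pawr and Rgs12, with r of 0.83, 0.80 and 0.79 over 19 arrays each. For Slc39a8 they were Tpm1, a tropomyosin, with 0.88 over 18 arrays, Rnpep with 0.85 over 16 and Arl15 with 0.83 over 17. For the Slc40a1 transcript probe they were Fcho2, an endocytosis protein, with 0.86 over 21 arrays, Tbl1xr1 with 0.84 over 21 and Agfg1 with 0.81 over 23. The tag probe was nearest to Enpp1 with 0.78 over 17 arrays, Lpin2 with 0.75 over 17 and Aga with 0.74 over 18.

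Mt1 was nearest to Clock, a circadian transcription factor, with 0.57 over 20 arrays, then Rfx2 with 0.53 over 23 and Foxp1 with 0.52 over 19. The best match of Mt1 was thus weaker than that of each other member. Each list is the top of 1622 to 1798 probes, all arrays share their scale, and group differences enter the correlation, so these values only describe the arrays.

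Other genes of metal handling were taken from a list by role. Of its 70 names other than the members, 59 had a probe, 12 were tested near 10, and 7 genes of the list reached 10 or above on all arrays with some probe. Of the 12 genes 0 passed in HAL and 0 in HEP in limma, against 3.8% and 2.82% of all genes, and 0 in HAL minus HEP. Their median difference was 0.04 for HAL minus Sham and 0.09 for HEP minus Sham, beside -0.04 and 0.01 over all genes tested. The regulators Mtf1, Hamp (hepcidin) and Hmox1 had probes below the range, which were not read.

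In the family of zinc exporters, Slc30a10, which carries manganese, averaged 10.09 ± 0.31 in HAL (SD, n = 8), 10.37 ± 0.21 in HEP (SD, n = 7) and 10.40 ± 0.21 in Sham (SD, n = 8). Its difference of -0.31 for HAL minus Sham did not pass (adjusted p = 0.222 in limma), nor did -0.03 for HEP minus Sham (adjusted p = 0.954 in limma). Slc30a3, the exporter of synaptic vesicles, had differences of 0.17 in HAL and 0.25 in HEP, and Slc30a9 of -0.001 and 0.09. Slc39a1, another ZIP importer, had 0.17 and 0.12. The 4 genes did not pass in limma, and the sign of Slc39a8 was not shared by Slc39a1.

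Of the iron genes, Lcn2, which binds iron-loaded siderophores and is induced in inflammation, averaged 10.65 ± 0.32 in HAL (SD, n = 5), 10.15 ± 0.24 in HEP (SD, n = 6) and 9.85 ± 0.66 in Sham (SD, n = 8). Its difference was 0.80 for HAL minus Sham (adjusted p = 0.0919 in limma) and 0.30 for HEP minus Sham (adjusted p = 0.636 in limma). Slc22a17, its receptor, had differences of 0.05 in HAL and 0.18 in HEP, and Tfrc, the transferrin receptor, of 0.02 and -0.15. Bmp2, a signal that induces hepcidin in liver, had 0.22 and 0.23, and Cp, the ferroxidase ceruloplasmin, 0.07 and -0.08. Flvcr2 of the haem and choline carriers had -0.48 and -0.27, and Slc31a2 of the copper carriers -0.36 and -0.47. None of these passed.

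**Figure D5:**
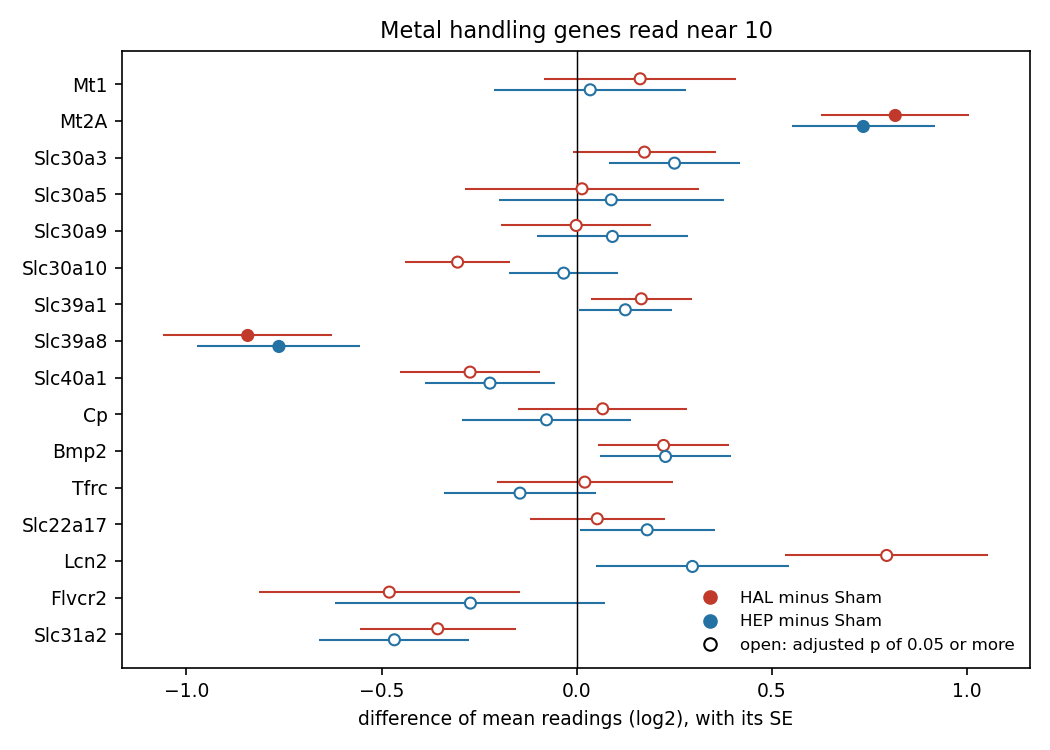
Differences of mean readings (log2) with their SE for HAL minus Sham and HEP minus Sham in the 16 metal handling genes read near 10, members included. Filled points were called by limma (adjusted p under 0.05), which for members restates their selection and held for Mt2A (0.82 and 0.74) and Slc39a8 (-0.84 and -0.76), and Slc40a1 is shown by the tag probe.

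Markers of the cell types in the vessels were set beside the lower readings of Slc39a8 and Slc40a1. Of the 4 pericyte markers read near 10, Atp13a5 was called lower in HAL minus Sham with -0.79, while Kcnj8 had 0.23, Abcc9 -0.03 and Cspg4 -0.02. In HEP minus Sham they had -0.72 for Atp13a5, 0.54 for Kcnj8, 0.23 for Abcc9 and -0.19 for Cspg4, and 0 were called. The list medians were -0.02 in HAL and 0.02 in HEP. Of the 2 perivascular fibroblast markers, Col3a1 was called lower in HAL with -0.87 and had -0.48 in HEP, and Col1a2 had -0.84 and -0.61 without a call. The 2 endothelial markers had -0.54 in HAL and -0.71 in HEP for Mfsd2a, and -0.02 and 0.07 for Tie1, with 0 called. The 4 astrocyte markers had a median of 0.26 in HAL and 0.07 in HEP, and 0 were called. The part of these cells in the results for the members was not tested.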

How the data were processed

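The 24 rat samples gave 1 array each. Per the submitters' processing notes the authors used RMA, which gives normalised log2 signals, with no version stated. Per the labels' protocols DNA was labelled with an Affymetrix whole-transcript kit, although the probe identifiers are those of a 3' array, a disagreement left as it is. The deposited table, as used here, holds other values, the decimals of log2 signals as whole numbers. They were read as described above.

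Probes were named by the platform annotation, where 20832 of 31099 have 1 symbol. Where a gene had several probes near 10, the one with the highest mean reading stood for it, and at least 2 readings per group were required. limma 3.58.1 in R 4.3.3 was fitted on group means over 24 arrays, using eBayes with no trend. P-values were adjusted by Benjamini-Hochberg over 1738 genes, and again over 2526 probes. Correlations and motifs were computed in Python 3.11.15 with numpy 2.4.6 and scipy 1.17.1. Members, lists and tests were chosen with earlier results of these data known. Named genes are the members, metal genes called or, per role, up to 3 with the smallest unadjusted p, and the 3 genes nearest to each member probe over at least 16 arrays. Markers were named after their values were seen. A planned reading of probes far from 10 by the shortest distance between decimals was not used, because in tests on simulated data it called unchanged probes. In the same tests the near-10 reading called few unchanged probes and none in the wrong direction, but missed many true changes. The simulated near-10 probes had a common spread and independent noise, so these tests do not give the error rate on these arrays. Array numbers were not used to pair the samples in the main fit. Of 24 pairs of arrays with the same number 3 had a correlation of deviations over 0.1 (median 0.002). Of 168 pairs with other numbers 9 did (median -0.003), so pairing was neither shown nor excluded.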

Additional observations from a re-analysis of the deposited data

Results flagged for a closer look

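The reading of Slc39a8 on HEP array 8 stood apart from the other HEP arrays. It was 10.93, while the nearest HEP array had 9.82 and the Sham arrays read ran from 10.10 to 10.96. The cell has 8 digits. Had it lost a zero it would read 9.09 or 9.93, below all Sham arrays read, and the digits do not tell these apart. It was the 1 such value in 15 member groups examined, where chance alone gives about 1 in 20 groups.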

How the results depend on the processing

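Calls of the members against Sham restate their selection, so keeping a call in a refit adds no support. Mt2A and the Slc40a1 transcript probe in HAL kept theirs in the settings run, with differences of 0.73 to 0.93 and -1.02 to -0.85 when 1 array was left out. Mt2A in HEP (0.65 to 0.85 without 1 array) did not pass in the fit of HEP and Sham alone (0.735), with the sample number as a replicate block (0.742), or, an alternative chosen after seeing the data, without HAL arrays 2 and 5 and Sham array 3 (0.747). Slc39a8 in HAL (-0.92 to -0.74 without 1 array) did not pass without these 3 arrays (-0.94). Slc39a8 in HEP (-0.94 to -0.66) did not pass without them (-0.79), with short cells read with lost leading zeros (-0.66), or, at an unchanged -0.763, with gene means over probes or in the fit of 2 groups. The Slc40a1 tag probe was called in HAL as a mean of both probes (-0.68). Small differences turned sign when 1 array was left out: Mt1 in HEP (-0.10 to 0.13), and in HAL minus HEP Mt2A (-0.009 to 0.14), Slc39a8 (-0.16 to 0.10) and the tag probe (-0.18 to 0.10, and 0.014 with arrays centred). The causes of these changes were not tested.

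Genes called in HAL numbered 66 (21 higher, 45 lower), 49 to 88 without 1 array, 37 without the 3 arrays, and 85 with arrays centred (41 higher, 44 lower). In HEP they numbered 49, 22 without HEP array 7, 113 without HEP array 8, 32 with 3 to 12 cells of 9 digits (of 863 genes tested), 98 with array weights and 32 in the fit of 2 groups. In HAL minus HEP there were 0, or 1 without HAL array 7. The replicate block gave 63, 41 and 0 genes, and changed no other call among the members. Mt1 and Slc39a8, with 14 cells of 9 digits, have no value in the range of 3 to 12, nor has the tag probe. The alternatives to the unused shortest-distance reading were not run.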

Other observations

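HEP array 8 was at one end of the HEP arrays on each member probe near 10, and it was singled out after its values were seen. It had the highest HEP readings of Slc39a8 (10.93) and of the transcript probe (10.80) and the tag probe (10.88) of Slc40a1, and the lowest of Mt2A (9.95) and Mt1 (9.28). Without it the HEP minus Sham differences were 0.83 for Mt2A, 0.13 for Mt1, -0.94 for Slc39a8, and -0.66 and -0.29 for the 2 probes of Slc40a1. Its median reading of 10.19 over all probes near 10 lay within the range of the other HEP arrays, 10.12 to 10.19. Leaving this array out also raised the genes called in HEP minus Sham from 49 to 113 of 1738, so its weight was not particular to the members.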
